A study of Mus musculus with 12 samples.

Results

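Mouse leukaemia cells of the precursor B-cell type (B-ALL, B-cell acute lymphoblastic leukaemia) were compared after 24 h in low glucose and in regular medium. They carry the genotype Bax-/-,Bak-/- and are called DKO. The comparison uses 6 of the 12 libraries of the study, the 3 DKO libraries from regular medium and the 3 from low glucose, and asks which transcripts changed when glucose was limited. The 3 DKO libraries of each medium were taken as the labels name them, and no measured value entered that choice. Both groups share the deletions of Bax and Bak1, which encode the pore-forming effectors of mitochondrial apoptosis, and both keep Mcl1, which encodes an anti-apoptotic protein of the BCL-2 family. The other 6 libraries come from cells with the genotype Bax-/-,Bak-/-,Mcl-1-/- (TKO), 3 in each medium. They entered the fit and are set against the DKO cells only at the end. Each genotype is represented by a single B-ALL line as far as the labels say, so Mcl1 status and line cannot be told apart. The glucose concentrations, the composition of the media, and the age, strain and driver oncogene of the line are not given in the sources used here. Whether separate cultures stand behind the 3 libraries of each group is not stated either, so p-values measure only the spread between libraries, which may be technical.

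Glucose feeds glycolysis, the pentose phosphate pathway that supplies ribose and NADPH, and the hexosamine pathway that supplies sugars for glycoproteins. Precursor B cells restrain glucose uptake through their lineage transcription factors, and malignant precursor B cells are known to run on a narrow energy margin. When glucose falls, AMPK and mTORC1 shift cells from synthesis to recycling, and eIF2α kinases of the integrated stress response raise translation of ATF4, which drives genes of amino acid supply. FOXO proteins, NRF2 and the TFEB family are transcription factors that move with the same nutrient and redox signals.

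Library depth, as the sum of gene counts, was 45914440 to 56260867 in regular medium and 35758895 to 46925274 in low glucose. Values below are library-size-scaled counts (CPM) computed with TMM factors, unless TPM, the authors' length-scaled abundance, is named. Sums of cell-type markers, and their 1 CPM threshold, use CPM of library totals without TMM factors. Those factors were 0.960 to 0.971 in regular medium and 1.02 to 1.05 in low glucose. Small differences between media in the sums, as for B-lineage and myeloid markers, can change or reverse with that scaling. The libraries agreed closely within a group: over 9229 genes with at least 5 CPM the median coefficient of variation between the 3 libraries was 2.51% in regular medium and 2.68% in low glucose. All 15 B-lineage markers, among them Cd79a, Pax5, Vpreb1 and Rag1, passed 1 CPM, and their summed level was 6508 to 6655 CPM in regular medium and 6734 to 6865 CPM in low glucose. Haemoglobin genes had no counts in the DKO libraries. Of 11 T-cell markers 3 passed 1 CPM (Lck, Zap70 and Cd28) while Cd3g, Cd4 and Cd8b1 had no counts, and the list's summed level was 99.1 to 105 CPM in regular medium and 125 to 129.5 CPM in low glucose. Summed NK-cell markers, with Klrb1c the 1 of 8 past 1 CPM, stood at 0.588 to 0.782 CPM in regular medium and 3.54 to 3.92 CPM in low glucose, and stromal and endothelial markers, with Pecam1 the 1 of 12 past it, at 87.6 to 94.6 CPM in regular medium and 165 to 173 CPM in low glucose. None of these 3 levels overlapped between media, and each moved with a single gene on the same scale. Cd28 stood at 4.92 to 5.94 CPM in regular medium and 29.4 to 30.6 CPM in low glucose. Lck stood at 90.5 to 97.3 and 92.1 to 96.2 CPM in the same order. Klrb1c stood at 0.395 to 0.711 and 3.32 to 3.66 CPM, and Pecam1 at 87.4 to 94.4 and 164 to 173 CPM. The part of these markers in the results was not tested. Of 15 myeloid markers 3 passed 1 CPM, with a summed list level of 7.03 to 7.8 CPM and 6.86 to 7.19 CPM in regular medium and low glucose. In bulk RNA, fewer cells of a type and less RNA per cell cannot be told apart.

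Transcripts of both deleted genes were still counted. Bax (mm10 chromosome 7, 45461695 to 45466903) stood at 17.2, 17.2 and 16.9 CPM in regular medium and 21.1, 20.9 and 23 CPM in low glucose. Bak1 (chromosome 17, 27019812 to 27028627) stood at 15.9 to 18.5 CPM in regular medium and 19.8 to 20.2 CPM in low glucose. Both rose slightly in low glucose, Bax by 1.27-fold and Bak1 by 1.19-fold (log2 0.34 ± 0.075 and 0.25 ± 0.079, adjusted p = 0.00117 and 0.0143). No library with intact Bax or Bak1 is among the 12, and a transcript that lacks an exon can still be counted, so these counts do not check the deletions. Mcl1 (chromosome 3, 95656944 to 95663179) stood at 237, 238 and 242 CPM in regular medium and 266, 270.2 and 273 CPM in low glucose. The low glucose libraries all lay above the regular ones, and Mcl1 was 1.13-fold higher (log2 0.17 ± 0.042, adjusted p = 0.00219). Bak1 was not called without regular library 2 or regular library 3 (adjusted p up to 0.0773).

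Low glucose reached most of the transcriptome, and the large changes were mostly rises. Of 11988 tested genes 7512 (62.7%) were called at an adjusted p under 0.05, 3789 higher (31.6%) and 3723 lower (31.1%). With libraries this alike, even small shifts pass the test, so a second measure is the 692 genes (5.77%) called with at least a 2-fold change: 519 higher (4.33%) and 173 lower (1.44%). At least 4-fold changes were seen in 99 genes that rose and in 4 that fell. The median log2 fold change over all tested genes was 0.01. For 74.2% of tested genes the 3 libraries of each medium did not overlap.

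**Figure D1:**
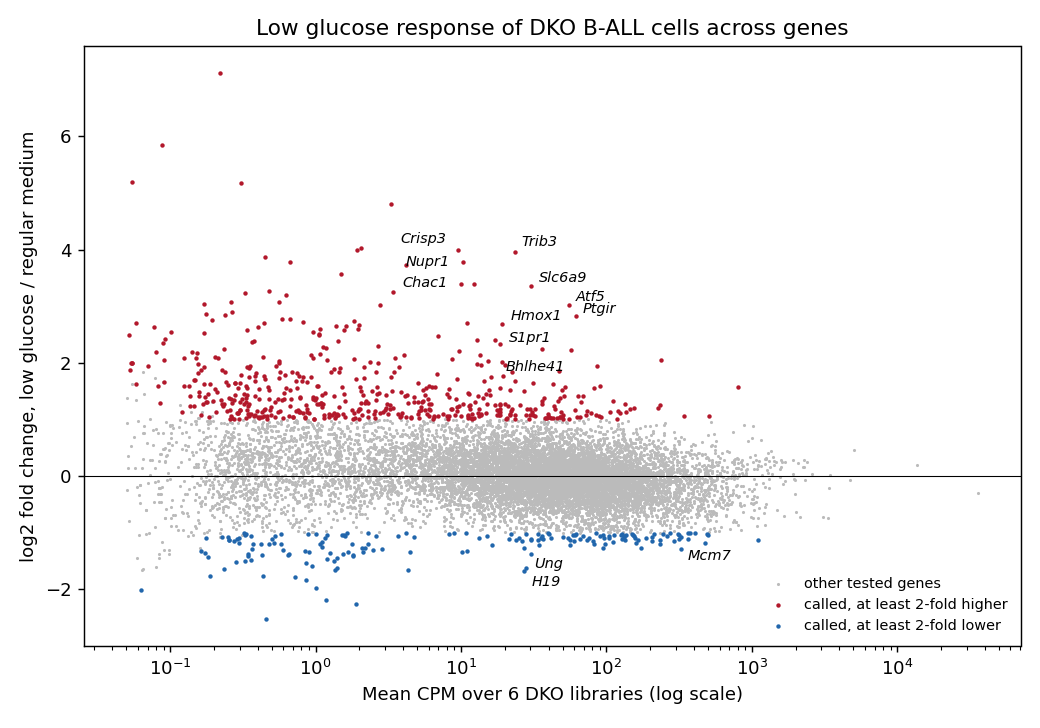
Each point is a gene of the DKO libraries, with the mean CPM of the 6 libraries on a log axis and the log2 fold change of low glucose over regular medium on the vertical axis. Red and blue mark called genes with at least a 2-fold change, and 13 genes of the text are named. 11677 tested genes with a mean above 0.05 CPM are drawn.

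By rule the 15 largest rises, over genes averaging 5 CPM or more, were Crisp3, Trib3, Nupr1, Chac1, Cth, Slc6a9, Atf5, Ptgir, Crisp1, Hmox1, Bcar3, Rapgef3, Cd28, S1pr1 and Bhlhe41. Of these, 4 belong to the integrated stress response list described below (Trib3, Nupr1, Chac1 and Atf5). Crisp3, which encodes a secreted cysteine-rich protein, led with 0.97, 1.27 and 1.1 CPM in regular medium and 17.1, 17.7 and 18.9 CPM in low glucose, 16-fold higher (log2 3.996 ± 0.17, adjusted p = 1.74e-10). Its relative Crisp1 was 6.55-fold higher. How reads shared between such relatives were counted is not given, so the split between them is uncertain. Ptgir, the prostacyclin receptor, which couples to cyclic AMP, rose from 15.2 ± 0.18 to 108 ± 1.62 CPM (SD, n = 3; 7.09-fold), and Rapgef3, a cyclic AMP-activated exchange factor, was 5.29-fold higher. Bcar3, an adaptor of Src-family signalling, and Bhlhe41, a transcriptional repressor of the clock and of B-cell programmes, were 5.59- and 4.73-fold higher. Cd28, known best as a T-cell co-stimulatory receptor, stood at 5.23, 6.19 and 5.07 CPM in regular medium and 29.3, 28.5 and 29.4 CPM in low glucose. All 3 low glucose libraries were far above the regular ones for Cd28, 5.29-fold higher (log2 2.40 ± 0.087, adjusted p = 4.24e-10), while the T-cell markers Cd3g, Cd4 and Cd8b1 had no counts and Lck did not pass the test (log2 -0.09 ± 0.053, adjusted p = 0.154).

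The falls were smaller than the rises. Over the same genes averaging 5 CPM or more, the 15 largest were H19, Ung, Rsph1, Hist1h1e, Mcm7, Hells, Shmt1, Snhg3, Tmprss3, Aunip, Gins1, Arhgap19, Lig1, Hirip3 and Dut. Mcm7, Gins1 and Lig1 are replication genes, and Dut keeps uracil out of DNA. H19, an imprinted long non-coding RNA, stood at 43.1, 40.2 and 40.7 CPM in regular medium and 13.3, 12.3 and 12.8 CPM in low glucose. It was the steepest of these 15 falls, 3.22-fold lower (log2 -1.69 ± 0.059, adjusted p = 3.69e-11). Ung, the uracil-DNA glycosylase that removes uracil from DNA, stood at 43.4, 41.7 and 42.8 CPM in regular medium and 13.6, 14.4 and 13.4 CPM in low glucose, with no overlap between media, 3.09-fold lower (log2 -1.63 ± 0.052, adjusted p = 2.04e-11). Hells, a chromatin remodeller of dividing lymphoid cells, was 2.42-fold lower. Snhg3, a small nucleolar RNA host gene, was 2.4-fold lower, and Hirip3, a histone-binding protein, 2.29-fold lower.

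**Figure D2:**
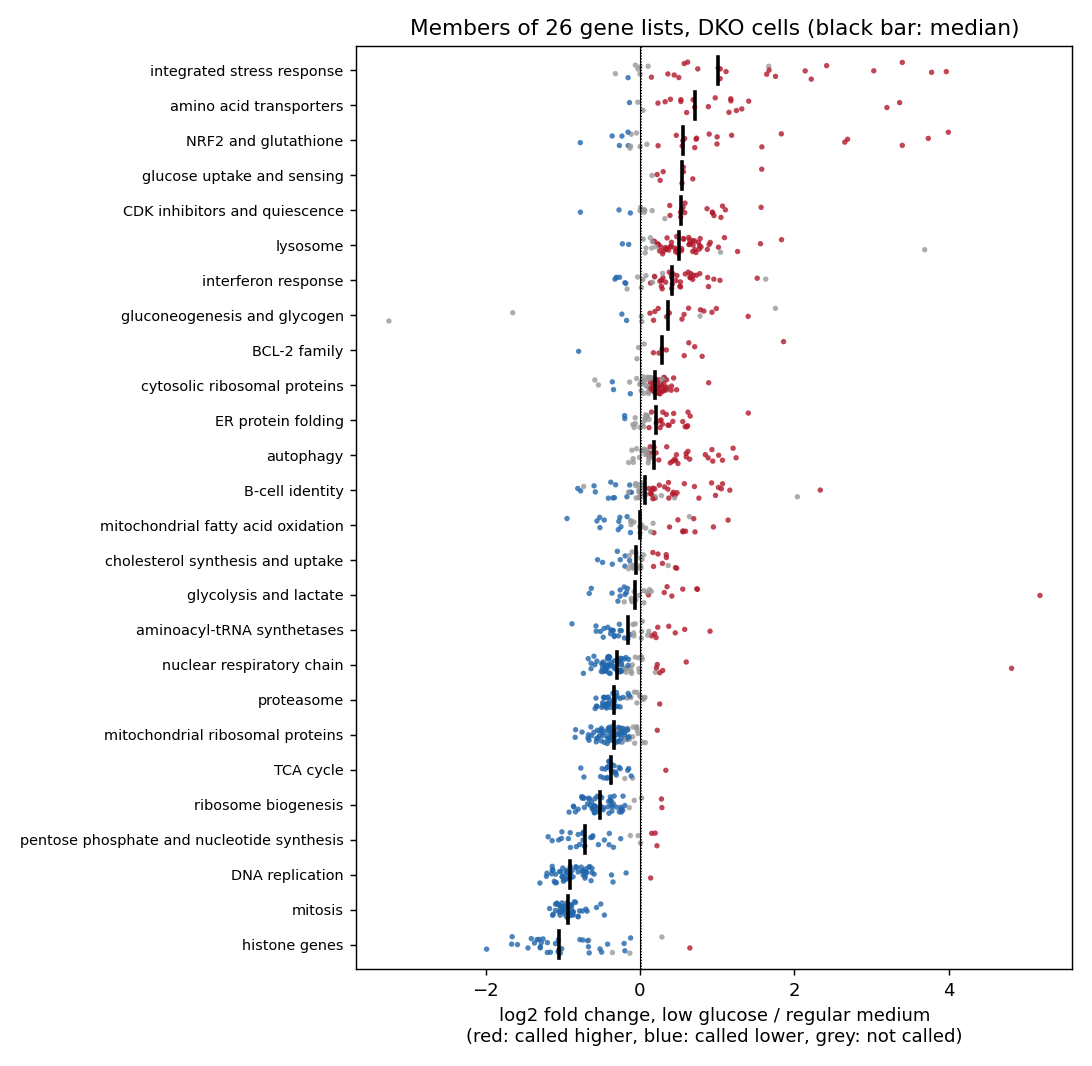
Each point is a tested member of 1 of 26 gene lists, at its log2 fold change in DKO cells, and the black bars are list medians. Medians run from 1.01 for the integrated stress response to -1.05 for histone genes. The 2 points beyond 4.5 are Slc16a3 and Cox6a2, genes with few or no counts in regular medium.

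Most glucose transporter and glycogen genes rose, and glycolysis genes moved both ways. Against that background, of 9 tested genes of glucose uptake and sensing, 8 were called higher and 0 lower (median log2 0.54). Slc2a1, which encodes the widely used transporter GLUT1, stood at 24.2, 23.3 and 24.2 CPM in regular medium and 37.3, 38.9 and 38.9 CPM in low glucose. All low glucose libraries were above the regular ones, 1.61-fold higher (log2 0.68 ± 0.049, adjusted p = 3.28e-08). Slc2a6, a lysosomal hexose transporter, was 2.98-fold higher at low levels (3.14 to 3.68 CPM in regular medium and 9.55 to 10.5 CPM in low glucose). Per length, Slc2a9, a transporter of urate and hexoses, was the most abundant of the 5 tested transporters in regular medium at 28.8 TPM, ahead of Slc2a1 at 17.8 TPM and Slc2a3 at 7.86 TPM. Slc2a3, which encodes GLUT3, did not pass the test (log2 0.16 ± 0.084, adjusted p = 0.12). Txnip and Arrdc3, arrestin family genes that restrain glucose uptake and are classical targets of the glucose sensor MondoA, rose as well: Txnip stood at 143, 148 and 147 CPM in regular medium and 215, 213 and 218 CPM in low glucose, 1.48-fold higher (log2 0.56 ± 0.037, adjusted p = 1.38e-08), and Arrdc3 was 1.46-fold higher. Mlxip, which encodes MondoA, and its partner Mlx were 1.2- and 1.17-fold higher.

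Among 30 glycolysis and lactate genes 8 were called higher and 10 lower, with a median log2 fold change of -0.07. These counts were near the shares over all tested genes, 31.6% higher and 31.1% lower. Gpi1, Pfkl, Pfkp and Aldoa, which act in the upper part of the pathway between glucose 6-phosphate and the triose phosphates, were 1.24-, 1.28-, 1.67- and 1.68-fold higher. Aldoa, the fructose bisphosphate aldolase, stood at 419.9, 395 and 409 CPM in regular medium and 686, 689.5 and 676 CPM in low glucose, with a clear gap between the media. Tpi1, of the next step, and the low-level Eno3 were 1.08- and 1.33-fold higher. The hexokinase genes Hk1 and Hk2 and, further down, Gapdh, Pkm and Ldha were 1.14-, 1.19-, 1.2-, 1.13- and 1.29-fold lower. Ldha, which makes lactate, stood at 778, 769.9 and 783 CPM in regular medium and 602, 608 and 604 CPM in low glucose, so the ranges did not overlap although the change was modest. Slc16a1, which encodes the lactate and pyruvate carrier MCT1, was 1.55-fold lower (log2 -0.63 ± 0.067, adjusted p = 1.61e-06). Of 21 tested genes of the hypoxia-inducible factor pathway and its targets 13 were called higher, 5 of them at least 2-fold, and 1 lower (median log2 0.28), while Pdk1, a member of that list, and the glycolysis gene Pgk1 did not pass the test (log2 0.05 ± 0.033, adjusted p = 0.186 and log2 0.09 ± 0.052, adjusted p = 0.133). In TPM, Gapdh was the most abundant tested member in both media, at 1536 ± 26.7 TPM in regular medium and 1311 ± 23 TPM in low glucose (SD, n = 3), and Aldoa went from 452 to 774 TPM. The calls of Hk1 and Pkm were lost in 8 and 7 of 12 alternative fits, single libraries left out among them (adjusted p up to 0.0879 and 0.0986). Tpi1 was not called without regular library 2 or low glucose library 2 (adjusted p up to 0.0702).

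Genes for storing and remobilising glucose moved mostly up. Of 22 tested genes of gluconeogenesis and glycogen, 14 were called higher and 2 lower (median log2 0.36). Ugp2, which makes the UDP-glucose that glycogen synthase and glycosyltransferases use, was 1.99-fold higher (log2 0.99 ± 0.098, adjusted p = 7.46e-07), and Gaa, the lysosomal enzyme that degrades glycogen, was 1.91-fold higher. The cytosolic synthase Gys1 and the branching enzyme Gbe1 were 1.46- and 1.18-fold higher. Pck2, the mitochondrial phosphoenolpyruvate carboxykinase, stood at 221, 211 and 216 CPM in regular medium and 366, 381 and 369 CPM in low glucose, 1.72-fold higher (log2 0.78 ± 0.07, adjusted p = 2.88e-07). Pcx and Phka2 were the 2 members that fell, 1.18- and 1.13-fold lower. In the hexosamine and nucleotide sugar list 12 of 26 were called higher and 8 lower, beside 31.6% and 31.1% of all tested genes. The salvage genes Nagk and Uap1l1 were 2.14- and 2.41-fold higher and Ogt, which attaches N-acetylglucosamine to intracellular proteins, 1.55-fold higher, while Uap1, Mpi, Galk1 and Nans were 1.26-, 1.35-, 1.33- and 1.3-fold lower. N-glycan assembly genes moved little: 8 of 29 were called higher and 4 lower, with a median log2 of 0.03.

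The effectors and transcription factors of the integrated stress response rose, with median log2 fold changes of 1.03 and 1.67, and the eIF2α kinases had a median of -0.04. Of 29 tested members 21 were called higher and 1 lower, 14 of them at least 2-fold higher (median log2 1.01). Some of these genes are shown with promoter sequence, because ATF4 and its partners are known to act through a composite C/EBP-ATF element. Within the RefSeq promoter window of each gene (GRCm38.p6, 250 bases before to 50 after the start), the letters TGATGNAAN on either strand occurred in 7 of 24 members with a window (29.2%). The share was 4.5% over all 27025 windows, 2.74% over tested genes and 6.03% over genes called at least 2-fold higher. In 2 lists described below it was 2 of 14 (14.3%) for amino acid transporters and 3 of 25 (12%) for serine, glycine and one-carbon genes. A match is a description of letters and not evidence of binding. The stretches lie upstream of the start and are written 5′ to 3′ on the gene's strand, with the matched letters in capitals: chr7:126625548-126625606 on the minus strand for Nupr1, chr2:119351023-119351081 on the plus strand for Chac1 and chr12:85599358-85599415 on the plus strand for Jdp2.
Nupr1: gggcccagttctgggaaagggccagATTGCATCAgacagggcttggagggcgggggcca
Chac1: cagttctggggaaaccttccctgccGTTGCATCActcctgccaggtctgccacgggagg
Jdp2: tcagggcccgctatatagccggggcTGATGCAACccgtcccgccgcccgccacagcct

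Nupr1, a small stress-induced chromatin protein, stood at 1.51, 1.25 and 1.47 CPM in regular medium and 18.6, 19.2 and 20.3 CPM in low glucose. The groups were far apart, 13.7-fold higher (log2 3.78 ± 0.12, adjusted p = 1.55e-11). Chac1, which degrades glutathione, rose 10.5-fold, from 1.72 ± 0.187 to 18.1 ± 0.643 CPM. Jdp2, a bZIP repressor related to ATF3, was 3.19-fold higher. Trib3, a pseudokinase that damps ATF4 and AKT, stood at 2.66, 2.94 and 2.8 CPM in regular medium and 44.1, 43.6 and 44 CPM in low glucose, the steepest rise of the list. Among the transcription factors of the pathway, Atf5, Ddit3 (CHOP) and Atf3 were 8.16-, 3.38- and 2.17-fold higher, and Atf4, whose activity is set mostly by translation, 1.42-fold higher. Gpt2, Gadd45a, Sesn2, Ddit4, Rhbdd1 and Eif4ebp1 were the other effectors with at least 2-fold rises among genes above 1 CPM, at 4.66-, 4.41-, 3.12-, 2.02-, 2.05- and 2.06-fold. The kinases upstream moved little: Eif2ak2 (PKR) was 1.36-fold higher, Eif2ak1 (HRI) 1.11-fold lower, and Eif2ak3 (PERK) and Eif2ak4 (GCN2) did not pass the test (log2 -0.06 and -0.03). Ppp1r15a (GADD34), the induced subunit of the eIF2α phosphatase, was 1.68-fold higher, and its constitutive relative Ppp1r15b did not pass (log2 0.10 ± 0.062, adjusted p = 0.16). The call of Eif2ak1 was lost in 10 of 12 alternative fits, single libraries left out among them (adjusted p up to 0.153).

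**Figure D3:**
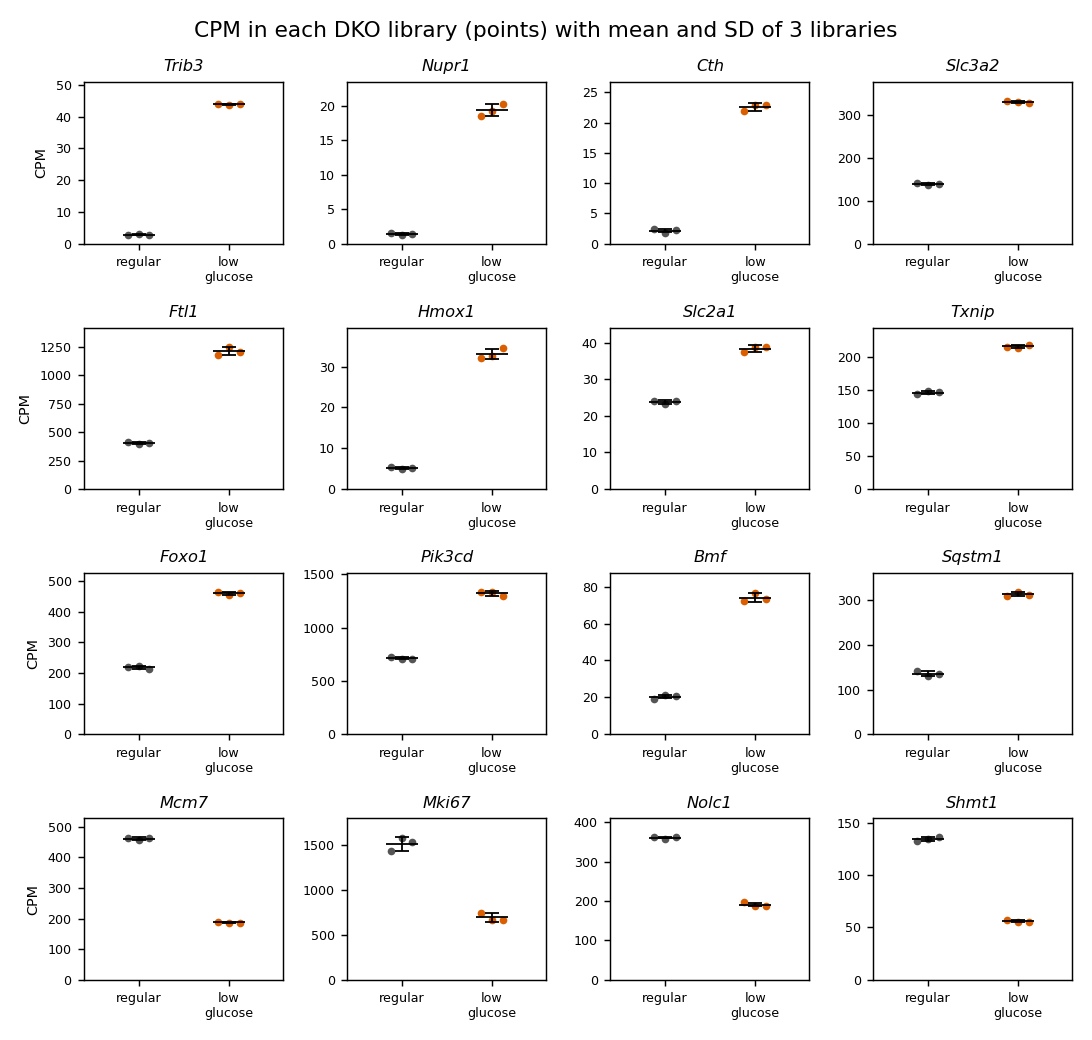
CPM of 16 genes in each of the 6 DKO libraries, 3 in regular medium (grey) and 3 in low glucose (orange), on linear axes that start at 0, with the mean and SD of each group in black. The 3 and 3 libraries do not overlap for any of the 16 genes. The top 3 rows hold genes that rose and the bottom row genes that fell.

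Most amino acid transporter genes rose. Of 21 transporter genes 18 were called higher, 8 at least 2-fold, and 1 lower (median log2 0.71). Slc3a2, the heavy chain that the large neutral and cystine transporters share, stood at 142, 136 and 138 CPM in regular medium and 331, 329 and 327 CPM in low glucose, 2.38-fold higher (log2 1.25 ± 0.044, adjusted p = 3.83e-11). Its partner Slc7a5 (LAT1) was 1.52-fold higher. Slc6a9, a glycine transporter, was 10.3-fold higher (log2 3.36 ± 0.069, adjusted p = 3.56e-13), and Slc1a4 and Slc43a2, carriers of small neutral and of large neutral amino acids, were 2.65- and 2.49-fold higher. All 6 carriers of lysosomal amino acids rose, among them the cystine exporter Ctns, the glutamine exporter Slc38a7 and the arginine sensor Slc38a9 (2.22-, 2.26- and 1.85-fold). Slc7a6 was the member that fell, 1.1-fold lower. The call of Slc7a6 was lost in 10 of 12 alternative fits, single libraries left out among them (adjusted p up to 0.204). Slc7a11, the cystine importer, had too few counts to be tested.

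The serine, glycine and one-carbon genes moved both ways, with 9 of 31 called higher and 11 lower, near the shares over all genes. Each branch held both directions: 1 higher and 3 lower of 8 for serine and glycine, 3 and 5 of 11 for folate, and 5 and 3 of 12 for proline, asparagine and transsulfuration. Cth, which makes cysteine from cystathionine, stood at 2.41, 1.83 and 2.22 CPM in regular medium and 21.9, 23 and 22.8 CPM in low glucose. It was 10.5-fold higher (log2 3.39 ± 0.11, adjusted p = 2.3e-11) with no overlap. Gpt2, Asns and Pycr1, which make alanine, asparagine and proline, were 4.66-, 2.3- and 2.6-fold higher, and the mitochondrial folate enzyme Mthfd2 1.77-fold higher. Of the cytosolic folate enzymes, Shmt1, which moves a carbon from serine to folate, stood at 133, 134 and 136 CPM in regular medium and 56.7, 55.6 and 54.9 CPM in low glucose, 2.41-fold lower (log2 -1.27 ± 0.04, adjusted p = 1.84e-11), and Mthfd1 was 2.13-fold lower. In the serine branch Psat1 was 1.77-fold lower, Psph 1.48-fold higher, and Phgdh and Shmt2 did not pass (log2 0.12 ± 0.055, adjusted p = 0.0679 and log2 0.10 ± 0.073, adjusted p = 0.232). Among 20 cytosolic tRNA synthetases 8 rose and 8 fell: Sars, Cars, Nars and Aars, for serine, cysteine, asparagine and alanine, were 1.88-, 1.49-, 1.37- and 1.3-fold higher, and Rars and Kars, for arginine and lysine, 1.48- and 1.43-fold lower. Of 17 mitochondrial synthetases 12 fell and 0 rose. Over all tested genes 31.6% were called higher and 31.1% lower.

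Both ferritin genes and the genes that set the rate of glutathione synthesis rose, while the peroxiredoxins Prdx1 and Prdx6 fell. NRF2, encoded by Nfe2l2, is held back by KEAP1 and pairs with small MAF proteins at antioxidant response elements, where BACH1 competes with it. Of 31 tested members 19 were called higher, 8 at least 2-fold, and 6 lower. Ftl1, the ferritin light chain, stood at 417, 398 and 401 CPM in regular medium and 1176, 1248 and 1209.8 CPM in low glucose. It was 2.99-fold higher (log2 1.58 ± 0.16, adjusted p = 1.12e-06), and the heavy chain Fth1 was 1.86-fold higher. Both have processed pseudogenes, and how their shared reads were counted is not given. Hmox1, which opens haem and releases iron, stood at 5.28, 4.94 and 5.15 CPM in regular medium and 32, 32.6 and 34.4 CPM in low glucose, 6.45-fold higher (log2 2.69 ± 0.058, adjusted p = 5.64e-13). The rate-limiting subunit of glutathione synthesis Gclc and its modifier Gclm were 1.66- and 1.49-fold higher, and the reductases Gsr and Txnrd1 1.39- and 1.46-fold higher. Nfe2l2 was 1.47-fold higher, Bach1 2.0-fold higher and the small MAF genes Mafg and Maff 2.0- and 3.56-fold higher, whereas Keap1 did not pass (log2 0.00 ± 0.047, adjusted p = 0.988). The members that fell were Prdx1, Prdx6, Sod2, Txn1, Gss and Ggct, at 1.18-, 1.28-, 1.2-, 1.11-, 1.11- and 1.71-fold lower. Srxn1, Osgin1, Nqo1 and Gstm1 also rose at least 2-fold, from means under 2 CPM in regular medium. The calls of Prdx1, Txn1 and Gss were lost in 8, 10 and 9 of 12 alternative fits, single libraries left out among them (adjusted p up to 0.0958, 0.165 and 0.212).

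Antioxidant response elements are shown because 11 of 26 members with a window held the letters TGACNNNGC on either strand (42.3%). The share was 14% over all windows, 17% over tested genes and 16.6% over genes called at least 2-fold higher. The 3 stretches, upstream of the start on the gene's strand with the match in capitals, are chr15:79346484-79346542 on the plus strand for Maff, chr11:120633736-120633794 on the minus strand for Mafg and chr6:54993008-54993066 on the minus strand for Ggct. The first 2 genes rose and Ggct fell.
Maff: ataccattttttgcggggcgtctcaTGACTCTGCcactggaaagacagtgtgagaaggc
Mafg: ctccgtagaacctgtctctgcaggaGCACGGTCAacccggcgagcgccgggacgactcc
Ggct: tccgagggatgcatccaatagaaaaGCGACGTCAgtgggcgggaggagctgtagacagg

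In the endoplasmic reticulum (ER), most genes of protein disposal rose, and chaperone genes rose or did not pass the test, apart from Canx. Of 10 genes of ER-associated degradation 8 were called higher and 1 lower (median log2 0.32). Of 19 chaperone genes 9 were called higher and 1 lower (median log2 0.09). Hspa5, the main ER chaperone BiP, stood at 1240.3, 1298 and 1269.9 CPM in regular medium and 1292, 1308 and 1341 CPM in low glucose. Its ranges lay close together and it did not pass the test (log2 0.05 ± 0.049, adjusted p = 0.403). Hsp90b1 (GRP94) did not pass either (log2 -0.09 ± 0.058, adjusted p = 0.187), and Canx was 1.15-fold lower. Herpud1, Os9, Derl1 and Syvn1, parts of the retrotranslocation and ubiquitination machinery, were 1.53-, 1.35-, 1.3- and 1.21-fold higher, Dnajb9 1.57-fold and Derl3 2.65-fold higher. The sensor Ern1 (IRE1) and the factors Atf6 and Xbp1 were 1.5-, 1.28- and 1.52-fold higher. The plasma cell markers Mzb1 and Jchain moved with this group, 1.54- and 2.7-fold higher, while the plasma cell marker Sdc1 was 1.92-fold lower and Tnfrsf17 had no counts. The summed level of the 7 plasma cell markers is given without TMM factors. It was 1094 to 1109.6 CPM in regular medium and 1639 to 1685 CPM in low glucose. The part of these markers in the ER result was not tested. The full ER stress element occurred in 9 of 31 promoter windows of the list (29%). It was in 0.137% of all windows, 0.171% of those of tested genes and 0.251% of those of genes called at least 2-fold higher. It is shown for Derl3 and for Syvn1, at chr10:75893217-75893285 on the plus strand for Derl3 and chr19:6046507-6046575 on the plus strand for Syvn1, with the element in capitals.
Derl3: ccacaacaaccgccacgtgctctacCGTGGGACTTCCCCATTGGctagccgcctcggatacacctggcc
Syvn1: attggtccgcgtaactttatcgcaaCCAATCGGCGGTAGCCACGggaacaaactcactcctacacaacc

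Most autophagy genes rose, and regulators of mTORC1 moved both ways. AMPK subunits and their upstream kinases moved little, with 3 of 8 genes called higher and 1 lower, the kinase Camkk2 moving most at 1.34-fold higher. Of 14 mTORC1 inhibitors 5 were called higher and 1 lower (median log2 0.09), beside 31.6% and 31.1% of all tested genes. Sesn2, Eif4ebp1, Ddit4 and Sesn3 were 3.12-, 2.06-, 2.02- and 1.69-fold higher, and Deptor, an mTOR-binding inhibitor listed with the mTOR complexes and not among the 14, was 1.87-fold lower. In the Rag arm, which recruits mTORC1 to lysosomes, Rragd was 1.98-fold higher (log2 0.99 ± 0.078, adjusted p = 7.87e-08), and the folliculin complex genes Flcn and Fnip1 were 1.6- and 1.43-fold higher, while Rraga, Rragb and Rheb were 1.19-, 1.19- and 1.16-fold lower. Among 44 autophagy genes 26 were called higher and 0 lower (median log2 0.18). Of 12 cargo receptors 8 were called higher and 0 lower. Sqstm1 (p62) stood at 142, 130.4 and 135 CPM in regular medium and 310.5, 319 and 312 CPM in low glucose, 2.31-fold higher (log2 1.21 ± 0.041, adjusted p = 3.12e-11), the mitophagy receptors Bnip3 and Bnip3l were 2.37- and 1.51-fold higher, and Calcoco1 and Tex264, receptors for the ER, 2.03- and 1.91-fold higher. The ubiquitin-like genes Gabarapl1, Map1lc3b and Gabarap were 1.84-, 1.54- and 1.52-fold higher. Ulk1, the initiating kinase, did not pass (log2 0.04 ± 0.074, adjusted p = 0.65), and its relative Ulk2 was 1.41-fold higher.

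Most lysosomal genes rose. Of 61 tested members 49 were called higher, 5 at least 2-fold, and 2 lower (median log2 0.51): 27 of 33 hydrolases, all 8 membrane proteins and 11 of 16 proton pump subunits rose. The pump subunit Atp6v0a1 stood at 9.16, 9.42 and 9.65 CPM in regular medium and 28.4, 27.2 and 27.7 CPM in low glucose, with no overlap, 2.95-fold higher (log2 1.56 ± 0.055, adjusted p = 4.27e-11). Cln3, the Batten disease membrane protein, and the hydrolases Pld3 and Idua were 2.4-, 2.14- and 2.02-fold higher, and Ctsh rose 3.56-fold at low levels (0.586 to 0.679 CPM in regular medium and 2.14 to 2.41 CPM in low glucose). Lamp1, Ctsd and Lamp2 were 1.31-, 1.56- and 1.69-fold higher. Of the factors that drive this set, Tfe3 and Mitf were 1.28- and 1.56-fold higher (Mitf at 0.476 to 0.72 CPM in regular medium and 0.731 to 1.0 CPM in low glucose), and Tfeb was 1.11-fold lower. Gusb was the hydrolase that fell, 1.17-fold lower. The call of Tfeb was lost in 8 of 12 alternative fits, single libraries left out among them (adjusted p up to 0.179). Mitf was not called without regular library 3 (adjusted p up to 0.0563). The E-box CACGTG is the core of the element that TFEB proteins bind and also a site for MYC. It occurred in 8.09% of all windows, 12% of those of tested genes and 9.8% of those of genes called at least 2-fold higher. In the lysosome list it occurred in 16 of 48 windows (33.3%). The share was 9 of 50 (18%) for ribosome biogenesis and 1 of 8 (12.5%) for glucose uptake and sensing, where the E-box was also searched. The E-box is shown upstream of 3 lysosome genes that rose, at chr7:126583355-126583410 on the minus strand for Cln3, chr11:101069996-101070051 on the plus strand for Naglu and chr12:102439111-102439166 on the minus strand for Lgmn.
Cln3: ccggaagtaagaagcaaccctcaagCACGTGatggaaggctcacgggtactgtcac
Naglu: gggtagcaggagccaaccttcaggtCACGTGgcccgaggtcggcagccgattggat
Lgmn: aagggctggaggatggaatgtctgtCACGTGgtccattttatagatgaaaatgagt
Naglu and Lgmn were 1.88- and 1.86-fold higher.

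Genes of DNA replication and mitosis fell, with few exceptions. Of 53 DNA replication genes 52 were called lower, 15 at least 2-fold (median log2 -0.90), and of 48 mitosis genes all 48 were, 14 at least 2-fold (median log2 -0.93). Mcm7, a subunit of the replicative helicase, stood at 464, 456 and 463 CPM in regular medium and 189, 187 and 186 CPM in low glucose. The media were clearly apart, 2.46-fold lower (log2 -1.30 ± 0.032, adjusted p = 1.79e-12). The licensing genes Orc1, Mcm3 and Cdc6 were 2.2-, 2.16- and 2.14-fold lower, the fork genes Gins1, Lig1 and Pola1 2.32-, 2.3- and 2.18-fold lower, and the sliding clamp Pcna 2.01-fold lower. Pole2, a subunit of polymerase epsilon, was the member that rose, 1.1-fold higher (log2 0.14 ± 0.041, adjusted p = 0.00959). Pole2 was not called without regular library 1 (adjusted p up to 0.0549). Mki67, the proliferation antigen, stood at 1425, 1569.8 and 1524 CPM in regular medium and 744, 666 and 665 CPM in low glucose, 2.18-fold lower (log2 -1.12 ± 0.1, adjusted p = 4.22e-07). The mitotic kinases Plk1 and Cdk1 and the activator Cdc20 were 2.25-, 2.07- and 2.19-fold lower, and Ndc80 of the kinetochore fell least, 1.38-fold lower. The letters TTTNNCGC of the E2F site occurred on either strand in 19 of 44 windows of the replication list (43.2%). They occurred in 5.93% of all windows, 9.98% of those of tested genes and 20.9% of those of genes called at least 2-fold lower. They are shown for 3 genes that fell, at chr5:138172016-138172073 on the minus strand for Mcm7, chr17:56303256-56303313 on the plus strand for Uhrf1 and chr4:108579402-108579453 on the plus strand for Orc1.
Mcm7: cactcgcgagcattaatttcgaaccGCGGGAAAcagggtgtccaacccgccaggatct
Uhrf1: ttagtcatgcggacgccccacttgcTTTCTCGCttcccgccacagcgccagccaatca
Orc1: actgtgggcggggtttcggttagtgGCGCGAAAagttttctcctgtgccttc

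The entry machinery fell unevenly. Ccne1 and Ccna2, cyclins of the S phase entry, were 2.18- and 2.15-fold lower, and Ccnd3, the main D cyclin of precursor B cells, 1.51-fold lower from 1244 ± 43.6 CPM. Ccnd2 and Ccnd1 did not pass (log2 -0.06 ± 0.037, adjusted p = 0.183 and log2 0.05 ± 0.044, adjusted p = 0.397). E2f7 and E2f1 were 2.12- and 1.86-fold lower, the retinoblastoma relative Rbl1 1.9-fold lower and Rbl2, the relative typical of resting cells, 1.12-fold higher. Replication-dependent histone genes fell as well, 27 of 30 called lower and 0 higher. Their transcripts lack poly(A) tails, the libraries were made with an mRNA kit, and the means in regular medium ran from 0.425 CPM for Hist1h2ac to 15.8 CPM for Hist1h1e. The linker histone Hist1h1e and the core histone Hist1h4i were 2.52- and 2.02-fold lower. Hist1h1e stood at 14.9, 18.9 and 13.6 CPM in regular medium and 4.22, 6.4 and 8.24 CPM in low glucose. The rRNA precursor Rn45s stood at 38476, 48166 and 31999 CPM and 18984, 32705 and 45261 CPM in the same order. Whether carry-over of RNA without poly(A) tails bears on the histone falls was not tested. Leaving out 1 DKO library at a time gave log2 -1.6 to -1.1 for Hist1h1e. Hist1h1c did not pass (log2 0.28 ± 0.12, adjusted p = 0.0598), and H1f0, the linker histone of resting cells, was 1.56-fold higher (log2 0.65 ± 0.044, adjusted p = 1.63e-08). Near-identical histone copies may share reads.

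Nearly all purine, pyrimidine and deoxynucleotide synthesis genes fell, and pentose phosphate genes moved both ways. All 10 purine synthesis genes were called lower (median log2 -0.68), and 11 of 12 pyrimidine and deoxynucleotide genes (median log2 -0.90). Dut, Tyms, Rrm1 and Tk1, which act close to DNA synthesis, were 2.28-, 2.07-, 2.02- and 2.02-fold lower. Ctps2 did not pass (log2 -0.02 ± 0.053, adjusted p = 0.719). Of 9 pentose phosphate genes 3 were called higher and 4 lower, beside 31.6% and 31.1% of all tested genes. Prps1, which makes the activated ribose for nucleotides, was 1.67-fold lower, whereas G6pdx and Pgd, which make NADPH, were 1.16- and 1.15-fold higher and Taldo1 1.11-fold higher. G6pdx stood at 69.8, 69.2 and 69.5 CPM in regular medium and 79.9, 80.9 and 82.1 CPM in low glucose, a small shift (log2 0.22 ± 0.039, adjusted p = 0.000188). Taldo1 was not called without regular library 2 or regular library 3 or low glucose library 2 (adjusted p up to 0.071).

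Genes that build ribosomes fell, while genes of the ribosome's own proteins, where called, mostly rose slightly. Of 39 rRNA processing genes 38 were called lower (median log2 -0.59). Nolc1, a nucleolar scaffold, stood at 363, 358 and 361 CPM in regular medium and 196, 189 and 188 CPM in low glucose, 1.89-fold lower (log2 -0.92 ± 0.087, adjusted p = 4.91e-07). Nop58, Fbl and Ncl, core nucleolar proteins, were 1.82-, 1.74- and 1.68-fold lower, and the polymerase I subunit Polr1b 1.65-fold lower. Maf1, the repressor of RNA polymerase III, and the polymerase I factor Taf1c were the 2 members that rose, 1.21- and 1.22-fold. Myc stood at 333, 321 and 322 CPM in regular medium and 212, 207 and 209.6 CPM in low glucose, 1.55-fold lower (log2 -0.64 ± 0.12, adjusted p = 0.000464), and Mycn was 1.19-fold higher. In contrast 48 of 83 cytosolic ribosomal protein genes were called higher and 3 lower (median log2 0.19). Leaving out 1 DKO library at a time left 32 (without low glucose library 3) to 45 called higher. Rpl13a, Rps19 and Fau were 1.32-, 1.33- and 1.39-fold higher, and Rpl7l1, Rps27l and Rpl7a 1.28-, 1.27- and 1.09-fold lower. The ribosomal protein genes have many processed pseudogenes, so their counts may hold shared reads. The call of Rpl7a was lost in 9 of 12 alternative fits, single libraries left out among them (adjusted p up to 0.173). Maf1 was not called without low glucose library 2 (adjusted p up to 0.0555). Taf1c was not called without low glucose library 2 (adjusted p up to 0.0524). By TPM the 5 most abundant tested transcripts were Eef1a1, Rps29, the rRNA precursor Rn45s, Rpl32 and Rps26, and Eef1a1, elongation factor 1 alpha, stood at 14375 ± 30.5 TPM in regular medium and 16783 ± 262 TPM in low glucose (SD, n = 3).

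Translation initiation factors mostly fell, 21 of 36 called lower and 3 higher. The cap-binding gene Eif4e was 1.64-fold lower, while its inhibitor Eif4ebp1 was 2.06-fold higher. The elongation factor Eef2 and its inhibitory kinase Eef2k were 1.37- and 1.24-fold higher, and Eif5a and the release factor Gspt1 1.65- and 1.82-fold lower. Most proteasome genes fell, 35 of 46 called lower and 1 (Psmd5) higher (median log2 -0.34), with Psmc4 and Psmd1 1.48- and 1.48-fold lower. Of 18 heat shock genes 4 were called higher and 9 lower: Hsp90aa1 and its co-chaperone Fkbp4 were 1.46- and 1.7-fold lower, Hspa8 and Hsp90ab1 did not pass (log2 -0.07 and -0.07), and the inducible Hspa1b was 2.87-fold higher (2.62 to 3.0 CPM in regular medium and 7.86 to 8.56 CPM in low glucose). Hspa1b and Hspa1a are near-identical, and their split is uncertain.

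Most mitochondrial genes encoded in the nucleus fell, by small amounts. Of 76 respiratory chain and ATP synthase genes 55 were called lower and 6 higher (median log2 -0.30), of 78 mitochondrial ribosomal protein genes 63 and 1, and of 28 genes of mitochondrial biogenesis and proteostasis 25 and 1. Cycs, which encodes cytochrome c, stood at 168, 166 and 171 CPM in regular medium and 99.4, 98.9 and 106 CPM in low glucose, 1.66-fold lower (log2 -0.73 ± 0.044, adjusted p = 5.7e-09). Atp5b and Ndufs1 were 1.42- and 1.5-fold lower, and Hspd1, the mitochondrial chaperonin, 1.94-fold lower. Nrf1 and Pprc1, which drive genes of the respiratory chain, were 1.64- and 1.58-fold lower, and Esrra, the estrogen-related receptor alpha, was the biogenesis gene that rose, 1.26-fold higher. Cox7a2l, a factor for assembling respiratory supercomplexes, was 1.51-fold higher (log2 0.60 ± 0.058, adjusted p = 6.34e-07). Cox6a2, an isoform typical of muscle, went from 0.128 to 0.361 CPM in regular medium to 6.21 to 6.5 CPM in low glucose. In the TCA cycle 24 of 27 were called lower, led by Idh3a and Fh1 (1.7- and 1.65-fold), and the citrate exporter Slc25a1 was 1.26-fold higher. The 13 mitochondrially encoded protein genes were not analysed here.

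Fatty acid oxidation, which the title of the series names, had genes that moved both ways. Of 33 tested genes 10 were called higher and 11 lower, near the shares over all tested genes (31.6% and 31.1%). The median log2 was 0.00. Cpt1a, which commits long-chain fatty acids to the mitochondrion, stood at 106, 103 and 103 CPM in regular medium and 148, 147 and 145 CPM in low glucose. The media did not overlap, 1.41-fold higher (log2 0.49 ± 0.034, adjusted p = 2.02e-08). In the carnitine shuttle, the route into the mitochondrion, 3 of 6 genes were called higher and 0 lower, and of 24 oxidation enzymes 4 higher and 11 lower. The carnitine importer Slc22a5 was 1.47-fold higher, Ppard, a nuclear receptor for fatty acids, 2.21-fold higher, and Mlycd, which removes the CPT1 inhibitor malonyl-CoA, 1.51-fold higher. Cpt2 and the carnitine carrier Slc25a20 did not pass (log2 0.02 ± 0.057, adjusted p = 0.831 and log2 -0.12 ± 0.059, adjusted p = 0.103). Among the enzymes Acadm, Acad11 and Acadsb were 1.13-, 1.3- and 1.47-fold higher, the trifunctional protein genes Hadha and Hadhb and the electron carrier Etfa 1.21-, 1.38- and 1.47-fold lower, and the activating enzymes Acsl3 and Acsl5 1.93- and 1.43-fold lower. Acadvl and Acadl did not pass (log2 -0.08 and -0.12). In uptake, storage and lipolysis 14 of 20 were called higher and 3 lower: Gpat3, Pnpla2 (the adipose triglyceride lipase) and the lipid droplet gene Plin2 were 1.92-, 1.39- and 1.34-fold higher and Fabp5 1.57-fold lower. Fatty acid synthesis leaned down (8 lower and 3 higher of 15), with Acaca, Scd1 and Elovl6 1.37-, 1.39- and 1.61-fold lower and Fasn not past the test (log2 0.05 ± 0.054, adjusted p = 0.392). Cholesterol genes had no common direction, 8 called higher and 8 lower of 31, and Srebf2, a transcription factor of the pathway, did not pass (log2 -0.05 ± 0.046, adjusted p = 0.369). Acadm was not called without low glucose library 3 (adjusted p up to 0.05).

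Most genes of resting cells rose. Of 26 CDK inhibitor and quiescence genes 16 were called higher and 3 lower (median log2 0.53). Foxo1, a FOXO factor central to precursor B cells, stood at 219, 225 and 214 CPM in regular medium and 464, 453 and 462 CPM in low glucose, 2.1-fold higher (log2 1.07 ± 0.04, adjusted p = 7.19e-11), and Foxo3 was 1.44-fold higher. Klf6, Slfn2 and Btg2 were 2.15-, 2.07- and 1.94-fold higher, the MYC antagonist Mxd4 1.92-fold higher and Mxd3, the antagonist found in cycling cells, 1.71-fold lower. The CDK inhibitors Cdkn1b (p27), Cdkn1a (p21) and Cdkn2a were 1.49-, 1.47- and 1.83-fold higher, Cdkn2d 1.21-fold lower, and Cdkn2c did not pass (log2 0.01 ± 0.039, adjusted p = 0.865). The letters GTAAACA of the forkhead site occurred on either strand in 2 of 25 promoter windows of the list (8%). The share was 4.05% over all windows, 3.22% over tested genes and 3.27% over genes called at least 2-fold higher. PI3K signalling opposes FOXO. Pik3cd, the leukocyte catalytic subunit, stood at 722, 706 and 709.9 CPM in regular medium and 1332, 1335 and 1299 CPM in low glucose, well separated, 1.86-fold higher (log2 0.89 ± 0.049, adjusted p = 2.12e-09), while Pik3ca did not pass (log2 0.03 ± 0.039, adjusted p = 0.597). Irs2 and the PI3K inhibitor Pik3ip1 were 1.97- and 2.03-fold higher and Akt1 1.19-fold lower.

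Among the pro-apoptotic BH3-only genes 4 of 6 rose. Of 13 tested BCL-2 family genes 9 were called higher and 1 lower. Bmf, a BH3-only gene known as a FOXO target, stood at 19.4, 21.1 and 20.6 CPM in regular medium and 71.9, 76.5 and 73.5 CPM in low glucose, with no overlap, 3.63-fold higher (log2 1.86 ± 0.063, adjusted p = 3.13e-11). Pmaip1 (NOXA), Bcl2l11 (BIM) and Bbc3 (PUMA) were 1.75-, 1.55- and 1.49-fold higher, and Bid and Bad did not pass (log2 -0.04 and 0.06). On the anti-apoptotic side Bcl2l2 and Bcl2l1 were 1.63- and 1.22-fold higher and Bcl2 did not pass (log2 -0.02 ± 0.062, adjusted p = 0.82). Bok, an effector-like relative, was the member that fell, 1.73-fold lower. Among p53 pathway genes 12 of 27 were called higher and 5 lower. Gadd45a and Sesn2, at least 2-fold higher, also belong to the stress response list above. Trp53inp1 and Cdkn1a were 1.93- and 1.47-fold higher, Mdm2 1.22-fold higher, Trp53 itself 1.27-fold lower, and Ccng1 did not pass (log2 0.05 ± 0.04, adjusted p = 0.289).

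Of 60 immediate early, MAPK feedback, cytokine feedback and PI3K pathway genes 40 were called higher and 8 lower. Among 15 immediate early genes 12 were called higher and 1 lower, and among 16 cytokine feedback genes 12 and 2. For 14 MAPK feedback genes it was 7 and 4, and for 15 PI3K pathway genes 9 and 1. Jun, Egr1 and Nfkbiz were 2.27-, 2.1- and 2.1-fold higher, and Dusp5, a feedback phosphatase of ERK, 2.26-fold higher. Cish and Pim1, targets of STAT5, were 1.78- and 1.61-fold higher. Pim1 stood at 254, 251 and 252 CPM in regular medium and 399, 405 and 410.3 CPM in low glucose, and its media did not overlap. Circadian genes had no common direction, 6 called higher and 4 lower of 15 (median log2 0.07), beside 31.6% and 31.1% of all tested genes. The repressors Bhlhe40 and Nfil3 were 3.2- and 2.25-fold higher and the core activator Arntl 1.71-fold lower.

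Precursor B-cell genes moved in both directions, mostly by little. Of 65 tested genes 27 were called higher and 13 lower, with a median log2 of 0.07. The lineage factor Ebf1 stood at 607, 622 and 613 CPM in regular medium and 621, 603 and 619 CPM in low glucose and did not pass (log2 0.00 ± 0.071, adjusted p = 1), and Syk, Blnk and Myb did not pass either (log2 -0.02, -0.02 and -0.01). Pax5, the B-cell commitment factor, was 1.26-fold lower (log2 -0.33 ± 0.081, adjusted p = 0.0026). The surrogate light chain Igll1 and the interleukin 7 receptor Il7r were 1.24- and 1.27-fold lower, Spib 1.7-fold lower and Id3 1.75-fold lower. Cd79a and Vpreb3 were 1.25- and 1.35-fold higher. S1pr1, the receptor for sphingosine 1-phosphate that guides exit into blood, stood at 6.23, 6.19 and 5.93 CPM in regular medium and 30.2, 30.6 and 31.7 CPM in low glucose, 5.05-fold higher (log2 2.34 ± 0.064, adjusted p = 4.03e-12), and Ccr7, which guides entry into lymph nodes, was 2.02-fold higher. Rag1, a recombinase gene and a FOXO1 target, was 1.7-fold higher (log2 0.76 ± 0.09, adjusted p = 4.69e-06). Crlf2, Cd38 and Id2 were 1.9-, 1.97- and 2.08-fold higher.

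Most interferon response genes rose, and the IFIT genes fell. Of 49 tested members 34 were called higher and 5 lower (median log2 0.41). The factors Stat2 and Irf9, which act together on these genes, were 1.71- and 1.94-fold higher, and the RNA sensor Ddx58 (RIG-I) 2.05-fold higher. Trim30a stood at 138, 140.2 and 143 CPM in regular medium and 260.3, 256 and 258 CPM in low glucose, 1.84-fold higher (log2 0.88 ± 0.04, adjusted p = 3.98e-10). Ifi27 and Xaf1 were 2.87- and 1.85-fold higher. The 5 members that fell were Ifit1, Ifit2, Ifit3, Ifit3b and Mx1, at 1.25-, 1.2-, 1.14-, 1.24- and 1.14-fold lower, and Irf7 and Isg15 did not pass (log2 -0.03 ± 0.065, adjusted p = 0.702 and log2 0.19 ± 0.11, adjusted p = 0.154). Ifit3 and Ifit3b are close copies and may share reads. The letters GAAANNGAA, a short form of the interferon-stimulated element, occurred on either strand in 19 of 35 windows (54.3%). The share was 9.76% over all windows, 8.86% over tested genes and 9.55% over genes called at least 2-fold higher. Matches are shown at chr7:104465195-104465253 on the minus strand for Trim30a and chr10:128270252-128270310 on the plus strand for Stat2.
Trim30a: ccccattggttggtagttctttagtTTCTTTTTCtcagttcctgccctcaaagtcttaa
Stat2: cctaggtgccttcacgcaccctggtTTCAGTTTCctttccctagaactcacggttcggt
In antigen presentation 13 of 25 were called higher and 3 lower. The class II chaperone subunits H2-Oa and H2-Ob, which modulate peptide loading in B cells, were 2.13- and 2.1-fold higher and the peptide loading genes Tap2 and Tapbp 1.47- and 1.45-fold higher, while the immunoproteasome genes Psmb8 and Psmb9 were 1.19- and 1.16-fold lower. H2-K1 and B2m did not pass (log2 -0.04 ± 0.049, adjusted p = 0.495 and log2 0.10 ± 0.12, adjusted p = 0.487).

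Cell division genes fell more in DKO cells, and many lysosome and amino acid transporter genes rose more there. The difference of the 2 responses (TKO minus DKO, tested as an interaction) was called for 3553 of 11988 genes (29.6%), above 0 for 2106 (17.6%) and below 0 for 1447 (12.1%). The 2 lines share no library. A difference above 0 means a smaller fall or a larger rise in TKO cells. It was called above 0 for 51 of 53 DNA replication genes, 48 of 48 mitosis genes and 30 of 58 ribosome biogenesis genes. Mki67, at 2.18-fold lower in DKO cells, did not pass the test in TKO cells (log2 -0.12, adjusted p = 0.382), and the difference was log2 1.003 ± 0.15, adjusted p = 0.000188. Below 0 it was called for 34 of 61 lysosome genes, 12 of 29 integrated stress response genes and 15 of 21 amino acid transporter genes. Trib3 rose 15.6-fold in DKO and 6.2-fold in TKO cells (difference log2 -1.34 ± 0.12, adjusted p = 1.92e-06). Both lines raised it, by unequal amounts. For glycolysis and lactate genes it was called above 0 for 12 of 30 and below 0 for 1. Called in both lines but in opposite directions were 151 genes (1.26%). The lines also differ in genes such as Lrp4, given next, so an effect of Mcl1 genotype cannot be told apart from other differences between the lines.

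Hk1, the housekeeping hexokinase, was among the 8 genes with the largest difference above 0, over genes averaging 5 CPM or more in the 12 libraries. It stood at 281, 268 and 273 CPM in regular medium and 242, 236 and 241 CPM in low glucose in DKO cells, and 18.1, 20.5 and 18.8 CPM and 39.2, 42.7 and 31.9 CPM in the same order in TKO cells. The DKO libraries fell a little in low glucose and the TKO libraries rose, a difference of log2 1.17 ± 0.11, adjusted p = 4.07e-06. Lrp4, a receptor of the LDL receptor family, stood at 93.3, 90.8 and 92.4 CPM in regular medium and 97.4, 94.5 and 91.9 CPM in low glucose in DKO cells, and 0.102, 0.236 and 0.0977 CPM and 0.752, 0.492 and 0.653 CPM in the same order in TKO cells. DKO cells gave no called change (log2 0.04 ± 0.049, adjusted p = 0.521) and TKO cells were 4.6-fold higher. Mt2, a metallothionein, Elfn1, Tnni2, Maged1, Hmgn5 and Hist1h1b complete that set. Among the 8 with the largest difference below 0, Cth rose 10.5-fold in DKO cells and 3.09-fold in TKO cells (difference log2 -1.76 ± 0.15, adjusted p = 1.31e-06), and Rag1 rose 1.7-fold in DKO cells and fell in TKO cells, where it was 1.65-fold lower (difference log2 -1.49 ± 0.12, adjusted p = 1.24e-06). Rasgrp1, an activator of RAS downstream of antigen receptors, was 2.67-fold higher in DKO cells and did not pass in TKO cells (log2 -0.0042, adjusted p = 0.958; difference log2 -1.42 ± 0.095, adjusted p = 2.34e-07).

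**Figure D4:**
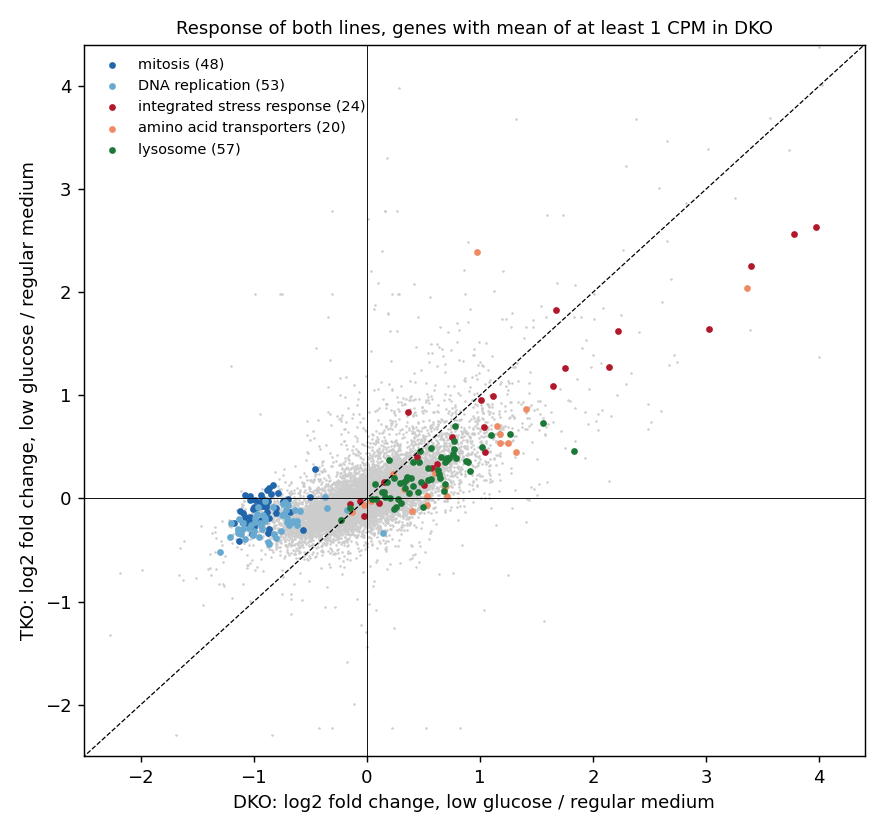
Log2 fold change of low glucose over regular medium in DKO cells (horizontal) and TKO cells (vertical) for genes averaging 1 CPM or more in the DKO libraries, with 5 lists coloured and the dashed line marking equal responses. Most mitosis and DNA replication genes lie left of 0 and above the line, and most stress response, amino acid transporter and lysosome genes lie right of 0 and below it. 7 genes lie beyond the axes.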

How the data were processed

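RNA-seq gene counts and TPM values of 12 libraries, made with a strand-specific mRNA kit per the labels' protocols, were used as deposited. The authors' notes name STAR 2.7.3a, DESeq2 1.22.1 and the mm10 build, per the submitters' processing notes. The counter behind the deposited counts, its strand setting and its handling of reads shared between genes are not given in the sources used here, nor is the way the authors' TPM values were scaled. Counts were filtered with filterByExpr by group (count minimum 10, total minimum 15), which kept 11988 of 24982 genes, scaled by TMM and fitted in edgeR 4.0.16 (R 4.3.3) with 1 mean per group, so that all 12 libraries share the estimate of spread. The contrast low glucose minus regular medium in DKO cells, and the difference of that contrast between TKO and DKO cells, were tested by the quasi-likelihood F test with Benjamini-Hochberg adjustment over all tested genes. A call is an adjusted p under 0.05, and rose and fell are used of calls. The number after ± beside a log2 fold change is its standard error, the fold change divided by the square root of F. CPM are TMM-scaled except in the marker sums and their 1 CPM threshold, which use library totals. The number after ± beside CPM or TPM is the SD of 3 libraries. The steps were tested on simulated data. DESeq2 1.42.0 and the other alternatives appear in the closing section.

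The members and gene lists were chosen with earlier results of these data known, so lists are described by counts and medians beside those of all genes. Named genes are Mcl1, Bax and Bak1; the 15 largest rises and falls with at least 5 CPM and no overlap between media; within lists, the up to 6 lowest adjusted p-values, at least 2-fold members, members against the majority and defining members that were not called; the 8 largest differences between lines each way; and the 5 highest by TPM. Some list members outside this rule are named for their roles, chosen after their values were seen. Promoter windows (250 bases before to 50 after the start) are RefSeq's for GRCm38.p6 and were searched on both strands. Mitochondrially encoded genes were not analysed here, and some list members are not reported here.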

Additional observations from a re-analysis of the deposited data

Results flagged for a closer look

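The response to low glucose differed between DKO and TKO cells for 3553 of 11988 genes, tested as the difference of the 2 responses in edgeR's quasi-likelihood fit. Of 385 tested genes named here, 246 had a called difference, above 0 for 102 and below 0 for 144, and 9 were called in opposite directions. All differences that follow are log2 values, TKO minus DKO. The rankings cover called genes averaging at least 5 CPM over all 12 libraries, without predicted genes, Riken clones and pseudogenes. The 8 largest above 0 were Lrp4 (2.16), Mt2 (1.67), Elfn1 (1.62), Tnni2 (1.29), Maged1 (1.19), Hmgn5 (1.18), Hist1h1b (1.18) and Hk1 (1.17). Hmgn5, a nucleosome-binding protein, was 2.16-fold lower in DKO cells, and the histone gene Hist1h1b 3.15-fold lower. Tnni2, a troponin gene, was 1.44-fold lower in DKO cells and 1.69-fold higher in TKO cells. Its level in TKO regular medium was only 0.749 to 1.1 CPM. Elfn1 and Maged1 were also low there, at 0.326 to 0.475 and 0.157 to 0.169 CPM, so these differences rest on few TKO counts. The 8 largest below 0 were Crisp3 (-2.62), Susd3 (-1.97), Glipr1 (-1.81), Cth (-1.76), Bcar3 (-1.57), Capn1 (-1.54), Rag1 (-1.49) and Rasgrp1 (-1.42). Each of these 8 rose in DKO cells, Susd3, Glipr1 and Capn1 by 4.4-, 5.59- and 3.81-fold from means of 1.5, 0.312 and 0.893 CPM. In DKO regular medium Lrp4 averaged 92.2 CPM, while every TKO library stood under 1 CPM.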

How the results depend on the processing

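Every count over all genes kept within 1.5 times its reported value under all alternatives run. Genes called higher and lower in DKO cells, 3789 and 3723, became 4129 and 3408 with DESeq2 size factors in edgeR, 4068 and 3386 in DESeq2, 4298 and 3259 with no filter on low counts, and 4388 and 4323 with the DKO libraries fitted alone. Leaving out each DKO library in turn gave 3431 to 3474 higher and 3415 to 3472 lower, and, for at least 2-fold, 509 to 535 and 175 to 188. The interaction count of 3553 ran from 2819 to 4079 when each of the 12 libraries was left out. The share of calls that were higher, 50.4%, reached 56.9% with no filter. The ribosomal precursor Rn45s took 1.99% to 4.62% of the counts of a library, and removing it, an alternative chosen after seeing the data, gave 4046 higher and 3484 lower. For cytosolic ribosomal proteins 32 to 66 members were called higher over all settings, and the list median stayed above 0 (log2 0.17 to 0.24). Replicate numbers did not pair the DKO libraries. Over 9229 genes the deviations of same-numbered DKO libraries from their group means correlated at -0.023, -0.056 and -0.019. The same check was not made for the TKO libraries, so pairing there, which bears on the interaction, was not tested. For some named genes TKO library 2 stood apart in the same direction in both media. Hmgn5 stood at 190, 248 and 180 CPM in TKO regular medium and 195, 261 and 195 CPM in TKO low glucose. Snhg3 stood at 70.7, 48.6 and 67.5 CPM and 35.4, 26.2 and 41 CPM in the same order. Mcm7 did not show this, at 528, 528 and 522 CPM and 366, 369 and 367 CPM. A fit with the replicate number as a block within each line called 4236 higher and 4175 lower, and 5166 for the interaction. Among members called per list in 1 direction, the counts that moved by over 1.5 times were 8 or fewer as reported, and cholesterol genes called lower, 8, became 15 with the DKO libraries alone. 28, 29, 39 and 24 of 50 list medians moved by more than 1 SD between libraries with DESeq2 size factors, in DESeq2, with no filter and without Rn45s, while the median over all tested genes went from log2 0.01 to 0.05, 0.05, 0.06 and 0.04. On the log2(TPM + 1) scale 162 of 385 named genes moved by more than 1 SD. Named calls that some fits lost are given beside those genes, apart from Phka2, Vpreb1 and Rps29. The call of Phka2 was lost with no filter (adjusted p = 0.0585). Vpreb1 and Rps29, named without their calls, lost them in 8 and 2 of 12 alternative fits (adjusted p up to 0.206 and 0.0516). No named gene with a called change reversed its direction. Genes under 1 CPM in regular medium, such as Cox6a2 and Mitf, rest on few counts there.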

Other observations

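3 further sets of genes were chosen after their values were seen and are given as values. Ahr, the ligand-activated aryl hydrocarbon receptor, stood at 7.15, 8.29 and 7.42 CPM in regular medium and 30.6, 29.9 and 31.7 CPM in low glucose, and in TPM at 2.5 ± 0.207 and 10.3 ± 0.298 (SD, n = 3). All low glucose libraries lay far above the regular ones, 4.03-fold higher (log2 2.01 ± 0.077, adjusted p = 8.12e-11). Its feedback repressor Ahrr and its target Tiparp were 3.58- and 2.98-fold higher. In TKO cells Ahr, Ahrr and Tiparp were 3.34-, 4.19- and 1.64-fold higher. The difference between the lines was called for Tiparp (log2 -0.86 ± 0.072, adjusted p = 1.34e-06) and not for Ahr (log2 -0.27 ± 0.14, adjusted p = 0.155) or Ahrr (log2 0.23 ± 0.11, adjusted p = 0.154).

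The second set holds 4 lymphocyte surface and membrane genes outside the B-cell list, each picked for its rise. Cd53, a leukocyte tetraspanin, stood at 91.6, 92 and 93.2 CPM in regular medium and 374, 381 and 385 CPM in low glucose, with the 3 libraries of each medium close together, 4.12-fold higher (log2 2.04 ± 0.037, adjusted p = 8.09e-14). Cd69, an early activation antigen that holds S1PR1 inside the cell, was 3.83-fold higher, the interleukin 10 receptor gene Il10ra 2.84-fold higher, and Laptm5, a lysosomal protein of leukocytes, 2.08-fold higher. Cd53 rose less in TKO cells, 1.58-fold (difference log2 -1.38 ± 0.05, adjusted p = 3.22e-09). The third set holds regulators, likewise picked: Ypel3 and Ypel5 were 3.09- and 2.07-fold higher, Tsc22d3 (GILZ, a glucocorticoid-induced gene) 2.03-fold higher, and Crebrf, a negative regulator of CREB3, 2.12-fold higher. Neat1, the long non-coding RNA of paraspeckles, was 3.03-fold higher (log2 1.598 ± 0.12, adjusted p = 4.39e-08).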
